A study of Arabidopsis thaliana with 6 samples.

Results

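The plastid genome of Arabidopsis thaliana keeps genes for part of its own expression apparatus, and 26 of these genes are described here across 6 arrays. The rule for them uses the annotation and no measured value: a probe set paired with 1 gene of the plastid genome counted if the gene symbol began with rps, rpl, rpo or ycf, or was matK, clpP, accD, ccsA or cemA. These 26 each had a probe set of their own among the 22746 probe sets that are not controls, and 6 further symbols were read only by 7 probe sets paired with 2 gene identifiers each. The 26 comprise 4 subunits of the plastid RNA polymerase, the intron maturase matK, 8 proteins of the small and 7 of the large ribosomal subunit, the photosystem I assembly factors ycf3 and ycf4, and clpP, accD, ccsA and cemA. The last 6 of these do not act in gene expression as such, so the set is wider than transcription and translation.

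Chloroplasts descend from cyanobacteria and still transcribe and translate their own genes. A bacterial-type RNA polymerase, whose core subunits are the products of the rpo genes, works beside phage-type polymerases encoded in the nucleus, and the transcripts are spliced, cut and translated on bacterial-type ribosomes built from plastid-encoded and nucleus-encoded proteins. Many plastid genes are transcribed together, so that a ribosomal protein gene can share its primary transcript with genes of photosynthesis.

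Whole seedlings of 2 brassinosteroid mutants were compared, bzr1-1D and det2, both in the Columbia-0 background. In bzr1-1D a dominant gain-of-function allele keeps BZR1, a transcription factor of the brassinosteroid response, active, and det2 lacks a steroid reductase of brassinosteroid synthesis. Seedlings of both genotypes grew for 5 days in shaken liquid medium with 1.5% sucrose at 22 °C in constant light, from about 15000 seeds pooled in a flask, and were then given 80% ethanol, the solvent of a hormone treatment not analysed here, for 3 hours. Each genotype had 3 Affymetrix ATH1 arrays, 1 from each of 3 experiments in different weeks in which the genotypes were grown side by side, wild-type seedlings not being analysed here.

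Values are probe set intensities on a linear scale. Array medians lay between 212.75 and 221.4, and between 19.6% and 21.5% of probe sets were below an intensity of 50. Every one of the 26 genes was above 50 in all 6 arrays, with means over the arrays from 199.4 to 8622, and no filter on dim probe sets was applied. Probe sets differ in brightness for reasons other than transcript level, so genes are not ranked against each other by intensity. The number of arrays limits the precision, and for each gene the 3 experiments are the replicates. None of the 8 green tissue markers listed had a named probe set. Of the 8 root markers listed, EXPA7 and EXPA18, expansins of root hairs, were measured, and of 5 seed markers PAP85, a storage protein.

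By mean difference most genes of the set were lower in bzr1-1D than in det2, but none of these differences passed the test. After Benjamini-Hochberg adjustment over the whole array (limma, blocked by experiment), 0 of the 26 genes and 0% of the 22746 probe sets reached 0.05. Adjusted p-values of the 26 ran from 0.704 to 0.995. At an unadjusted p under 0.05 there were 2 genes, ycf4 and rpl36, both lower in bzr1-1D (0 with arrays centred on the other plastid genes), where 4.1% of all probe sets met that criterion in the same direction and 6.84% in either. By mean difference 21 genes were lower and 5 higher in bzr1-1D, against 52.4% lower among all probe sets. All differences below are log2 of intensity plus 50 in bzr1-1D minus that in det2, and their median was -0.14 over the 26 and -0.01 over all probe sets. The median over the 26 was -0.06 without experiment 2 and -0.24 without experiment 3, and it turned to 0.02, with 12 genes lower, when each array was centred on the other plastid genes, a scaling that moved the median of all probe sets to 0.15. In 7 genes, rps4, rpl36, ycf4, clpP, accD, ccsA and cemA, bzr1-1D was lower in each of the 3 experiments, and in 0 it was higher in each. Among all probe sets 15.5% were lower and 12.4% higher in all 3. In these bulk samples, fewer plastids or green cells and fewer transcripts in each of them cannot be told apart. The summed intensity of the root hair expansins EXPA7 and EXPA18 came to 331.3, 130.8 and 333.1 in bzr1-1D against 430.1, 549 and 419.7 in det2 in experiments 1 to 3, so the genotypes did not overlap in this marker sum, while PAP85 overlapped at 43.1 to 78.7 against 57.3 to 127.5. Of all probe sets, 5.58% were separated with bzr1-1D lower and 9.32% in either direction. Only 2 of the 8 listed root markers were measured, and the list was chosen with earlier results of these data known. The part of these markers in the result was not tested.

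**Figure D1:**
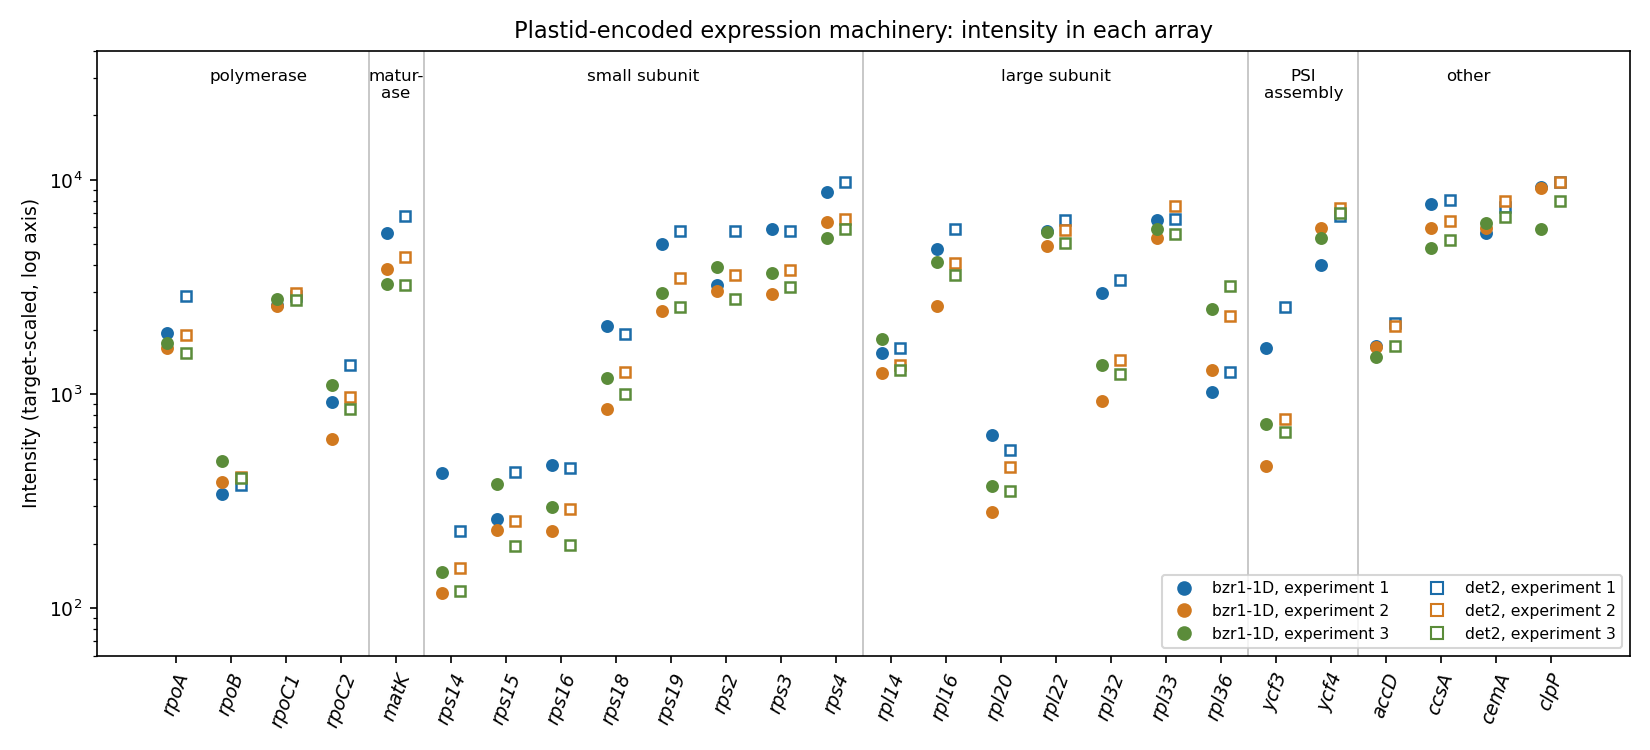
Intensity (log axis) of the 26 plastid-encoded genes in each of the 6 arrays, grouped by role; filled circles are bzr1-1D, open squares det2, and colours mark the 3 experiments. In 15 genes experiment 1 is highest in both genotypes, and only accD, ycf4 and cemA have all bzr1-1D values below all det2 values.

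The 4 polymerase genes encode the core of the bacterial-type enzyme: rpoA the alpha subunit, which starts assembly, rpoB the beta subunit, and rpoC1 and rpoC2 the parts of the beta prime subunit. Intensities of rpoB in experiments 1 to 3, an order kept for all genes below, were 342, 388 and 486.6 in bzr1-1D against 375.1, 411.3 and 405.7 in det2. The bzr1-1D arrays thus lay below, within and above the range of the det2 arrays. The log2 difference of rpoB was 0.01 ± 0.14 (SE), with a 95% interval from -0.36 to 0.39. Its neighbour rpoC1 was the steadiest of the polymerase genes, at 2600.2, 2580.9 and 2778.4 in bzr1-1D against 2866.4, 2976.2 and 2758.3 in det2, a log2 difference of -0.11 ± 0.13 (SE). For rpoC2 the values were 913, 615 and 1096.2 against 1366.5, 964 and 850.5. There bzr1-1D was lower in experiments 1 and 2 and higher in experiment 3, and the mean log2 difference of -0.27 ± 0.24 (SE) covers both signs. The same order of signs was seen in rpoA, with 1926.1, 1644.1 and 1733.9 in bzr1-1D against 2866.3, 1892.9 and 1549.4 in det2 and a log2 difference of -0.20 ± 0.18 (SE). All 4 polymerase genes shared this order of signs, though 3 of them were also higher in experiment 2 when arrays were centred on the other plastid genes, and 1 was lower in experiment 3 after quantile normalization.

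The maturase gene matK lies within a transfer RNA intron, and its product takes part in splicing a group of plastid introns. Intensities were 5624.4, 3850.7 and 3261.2 in bzr1-1D against 6758.1, 4368.5 and 3223.3 in det2. The genotypes overlapped widely, with a log2 difference of -0.14 ± 0.13 (SE), while both genotypes were highest in experiment 1 and lowest in experiment 3.

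Of the 8 genes for proteins of the small ribosomal subunit, which binds messenger RNA and decodes it, 5 were lower and 3 higher in bzr1-1D by mean difference. The median log2 difference was -0.05, and 0.11 with the arrays centred on the other plastid genes. For rps4, an early-binding assembly protein in bacteria, intensities were 8741.7, 6366.5 and 5350.7 in bzr1-1D against 9718.9, 6542.2 and 5915.6 in det2. It was the 1 gene of this group with a single direction in all 3 experiments, and its log2 difference was -0.11 ± 0.12 (SE). Both rps2, at 3223.2, 3030.7 and 3917.6 in bzr1-1D against 5760.2, 3609 and 2766.9 in det2, and rps15, at 260.9, 230.7 and 380 against 430.9, 255.4 and 196, were lower in bzr1-1D in experiments 1 and 2 and higher in experiment 3. Their swings were the widest of the set: the log2 difference of rps2 went from -0.83 in experiment 1 to 0.49 in experiment 3, and that of rps15 from -0.63 to 0.81. The mean differences were -0.19 ± 0.28 (SE) and 0.02 ± 0.30 (SE).

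The rps14 gene lies beside the photosystem I genes psaB and psaA and had the highest mean difference of the 26, at 0.23 ± 0.23 (SE). Intensities were 426.4, 118.1 and 147.3 in bzr1-1D against 229.3, 154.7 and 120.3 in det2, so the value rests on experiment 1, and without experiment 1 it was -0.04. For rps16 they were 468.5, 228.4 and 296.4 against 450, 290.5 and 197.6, and for rps18 they were 2069.2, 852.4 and 1190.7 against 1910.3, 1264.4 and 1001.8. In both genes bzr1-1D was higher in experiments 1 and 3 and lower in experiment 2, with log2 differences of 0.08 ± 0.19 (SE) and -0.06 ± 0.20 (SE). The remaining members of this group, rps3 and rps19, belong to a run of ribosomal protein genes that ends in rpoA. For rps3 the values were 5890, 2924.3 and 3671.1 in bzr1-1D against 5741.6, 3790.8 and 3165.1 in det2, and for rps19 they were 5008.9, 2431 and 2959.5 against 5788.8, 3472.3 and 2554.4. Their log2 differences were -0.04 ± 0.17 (SE) and -0.17 ± 0.18 (SE).

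Of the 7 genes for proteins of the large subunit, which forms peptide bonds, 6 were lower and 1 higher in bzr1-1D, with a median log2 difference of -0.14 that turned to 0.03 under the same centring. The gene furthest below 0 of all 26 was rpl36, which encodes one of the smallest ribosomal proteins. Its intensities were 1027.1, 1298.5 and 2483.4 in bzr1-1D against 1271.5, 2310.2 and 3186.5 in det2. Within each experiment bzr1-1D was the lower, but the ranges of the genotypes overlapped, and both genotypes were highest in experiment 3. The log2 difference was -0.49 ± 0.16 (SE), with a 95% interval from -0.91 to -0.06, an unadjusted p of 0.0322 and an adjusted p of 0.709 by limma.

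The large subunit gene rpl32 was at 2968.7, 928.8 and 1366.5 in bzr1-1D against 3404.3, 1438.9 and 1235.8 in det2. For rpl16 the intensities were 4766.7, 2567.9 and 4130.3 against 5918.7, 4078.7 and 3582.2. Both were lower in bzr1-1D in experiments 1 and 2 and higher in experiment 3, with log2 differences of -0.22 ± 0.19 (SE) and -0.25 ± 0.20 (SE). The same held for rpl22, at 5753.7, 4895.5 and 5730.7 in bzr1-1D against 6466.7, 5801.8 and 5075.3 in det2. It also held for rpl14, at 1552.2, 1252.9 and 1807.3 against 1642, 1369.2 and 1301.3, and for rpl33, at 6479.5, 5359 and 5921.8 against 6525, 7550.4 and 5589.3. The log2 differences of these 3 genes were -0.08 ± 0.15 (SE), 0.09 ± 0.17 (SE) and -0.14 ± 0.17 (SE). In rpl20, at 647.1, 282.7 and 372.2 in bzr1-1D against 549.2, 457.1 and 353.9 in det2, bzr1-1D was lower in experiment 2 only, and the log2 difference was -0.11 ± 0.21 (SE).

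The 2 assembly factors of photosystem I were the members of the set named ycf. For ycf4 the intensities were 4015.3, 5970.6 and 5373.6 in bzr1-1D against 6797.5, 7353.2 and 7006 in det2. Every bzr1-1D array was below every det2 array, and the fitted mean of intensity plus 50 was 28.1% lower. The log2 difference was -0.48 ± 0.15 (SE), with a 95% interval from -0.87 to -0.08, an unadjusted p of 0.028 and an adjusted p of 0.704 by limma. For ycf3 they were 1631.2, 460.8 and 721.1 against 2535.8, 767.3 and 661.9. The log2 difference was -0.39 ± 0.21 (SE), lower in experiments 1 and 2 and slightly higher, by 0.12, in experiment 3.

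The last 4 genes serve other tasks: clpP encodes the proteolytic subunit of the plastid Clp protease, accD a subunit of the acetyl-CoA carboxylase that starts fatty acid synthesis, ccsA a protein that attaches heme to c-type cytochromes, and cemA a protein of the chloroplast envelope. All 4 were lower in bzr1-1D in each experiment, which with the arrays centred on the other plastid genes held for 2 of the 4 in any one experiment. For clpP the intensities were 9235.4, 9159.9 and 5863.4 in bzr1-1D against 9739.3, 9755.3 and 7980.7 in det2, with most of the gap in experiment 3. For ccsA they were 7731.6, 5952.4 and 4801.4 against 8087.2, 6428.5 and 5249.8, a small and even gap of -0.06, -0.11 and -0.13 on the log2 scale. The groups overlapped in both genes, and the log2 differences were -0.20 ± 0.14 (SE) and -0.10 ± 0.12 (SE).

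For accD the intensities were 1668.4, 1655.4 and 1489.4 in bzr1-1D against 2137.3, 2066.5 and 1674.2 in det2, and for cemA they were 5657.6, 5966.5 and 6300.6 against 7468, 7931.4 and 6723. The groups did not overlap in either gene, though in accD the highest bzr1-1D array and the lowest det2 array nearly met. Log2 differences were -0.27 ± 0.13 (SE) for accD and -0.30 ± 0.14 (SE) for cemA, with unadjusted p by limma of 0.0859 and 0.0869. With ycf4, these were the 3 genes of the 26 whose groups did not overlap, all lower in bzr1-1D, where 5.58% of all probe sets were separated in that direction and 9.32% in either. The 3 are near neighbours in the gene table, in the order accD, psaI, ycf4, cemA, petA. Of the 69 single-gene probe sets of plastid genes, 4 had groups that did not overlap, all lower in bzr1-1D. That share is near the 5.58% of all probe sets separated in that direction. Besides accD, ycf4 and cemA this was petA, cytochrome f, at 6162, 7123.1 and 6803.3 in bzr1-1D against 8695, 8077 and 7519.9 in det2. The small photosystem I gene psaI, which lies between accD and ycf4, was lower in bzr1-1D in each experiment by -0.10 ± 0.12 (SE) on the log2 scale, with overlapping groups. This run of genes was singled out after its values were seen, and its genes can share transcripts, so they are not independent readings.

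**Figure D2:**
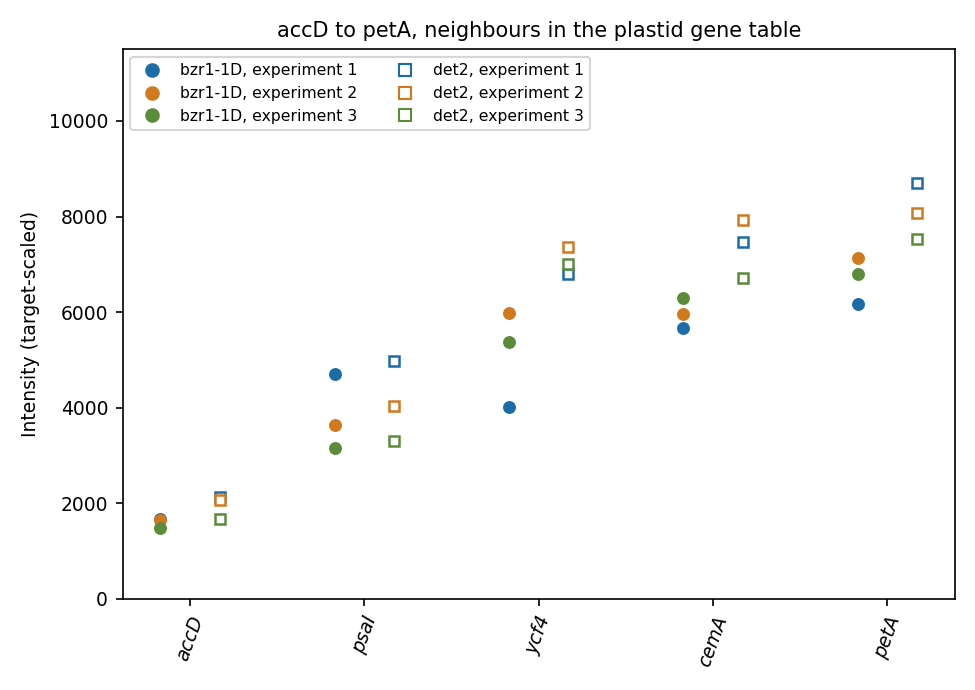
Intensity (linear axis) of 5 plastid genes that follow each other in the gene table, in each array; filled circles are bzr1-1D, open squares det2, and colours mark the experiments. In accD, ycf4, cemA and petA the bzr1-1D arrays lie below the det2 arrays, and in psaI the genotypes overlap.

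The genotype difference of the set changed sign between experiments. In experiment 1, 21 of the 26 genes were lower in bzr1-1D (49.1% of all probe sets), with a median log2 difference of -0.18. In experiment 2 all 26 were lower (52.1% of all probe sets), from -0.81 for rpl36 to -0.04 for rps4, with a median of -0.29, though 17 were lower when arrays were centred on the other plastid genes and 25 after quantile normalization. In experiment 3 only 7 were lower (54.1% of all probe sets), and 19 were higher, with a median of 0.15. Those 19 were the 4 polymerase genes, matK, ycf3 and 13 of the 15 ribosomal protein genes, while rps4 and rpl36 and the 5 genes ycf4, clpP, accD, ccsA and cemA remained lower. These 19 were all lower in experiment 2 and higher in experiment 3, a pattern of 21.3% of all probe sets, and 14 were lower in experiment 1 as well, a pattern of 9.57% of all probe sets. Each experiment has 1 array of each genotype, so the change of sign between experiments could not be tested. Across the 26 genes, Pearson's r of these differences was 0.04 between experiments 1 and 2, -0.03 between 1 and 3 and 0.07 between 2 and 3, against -0.03, 0.105 and 0.303 over all probe sets, a description over genes that share arrays and transcripts. Lower values in experiment 2 were not particular to plastid genes, as 16 of 19 measured nuclear partner genes, described below, were lower in bzr1-1D there too. The bzr1-1D array of experiment 2 was also the lowest of the 6 in the expansin sum and in PAP85. The part of these 2 markers in the pattern was not tested.

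**Figure D3:**
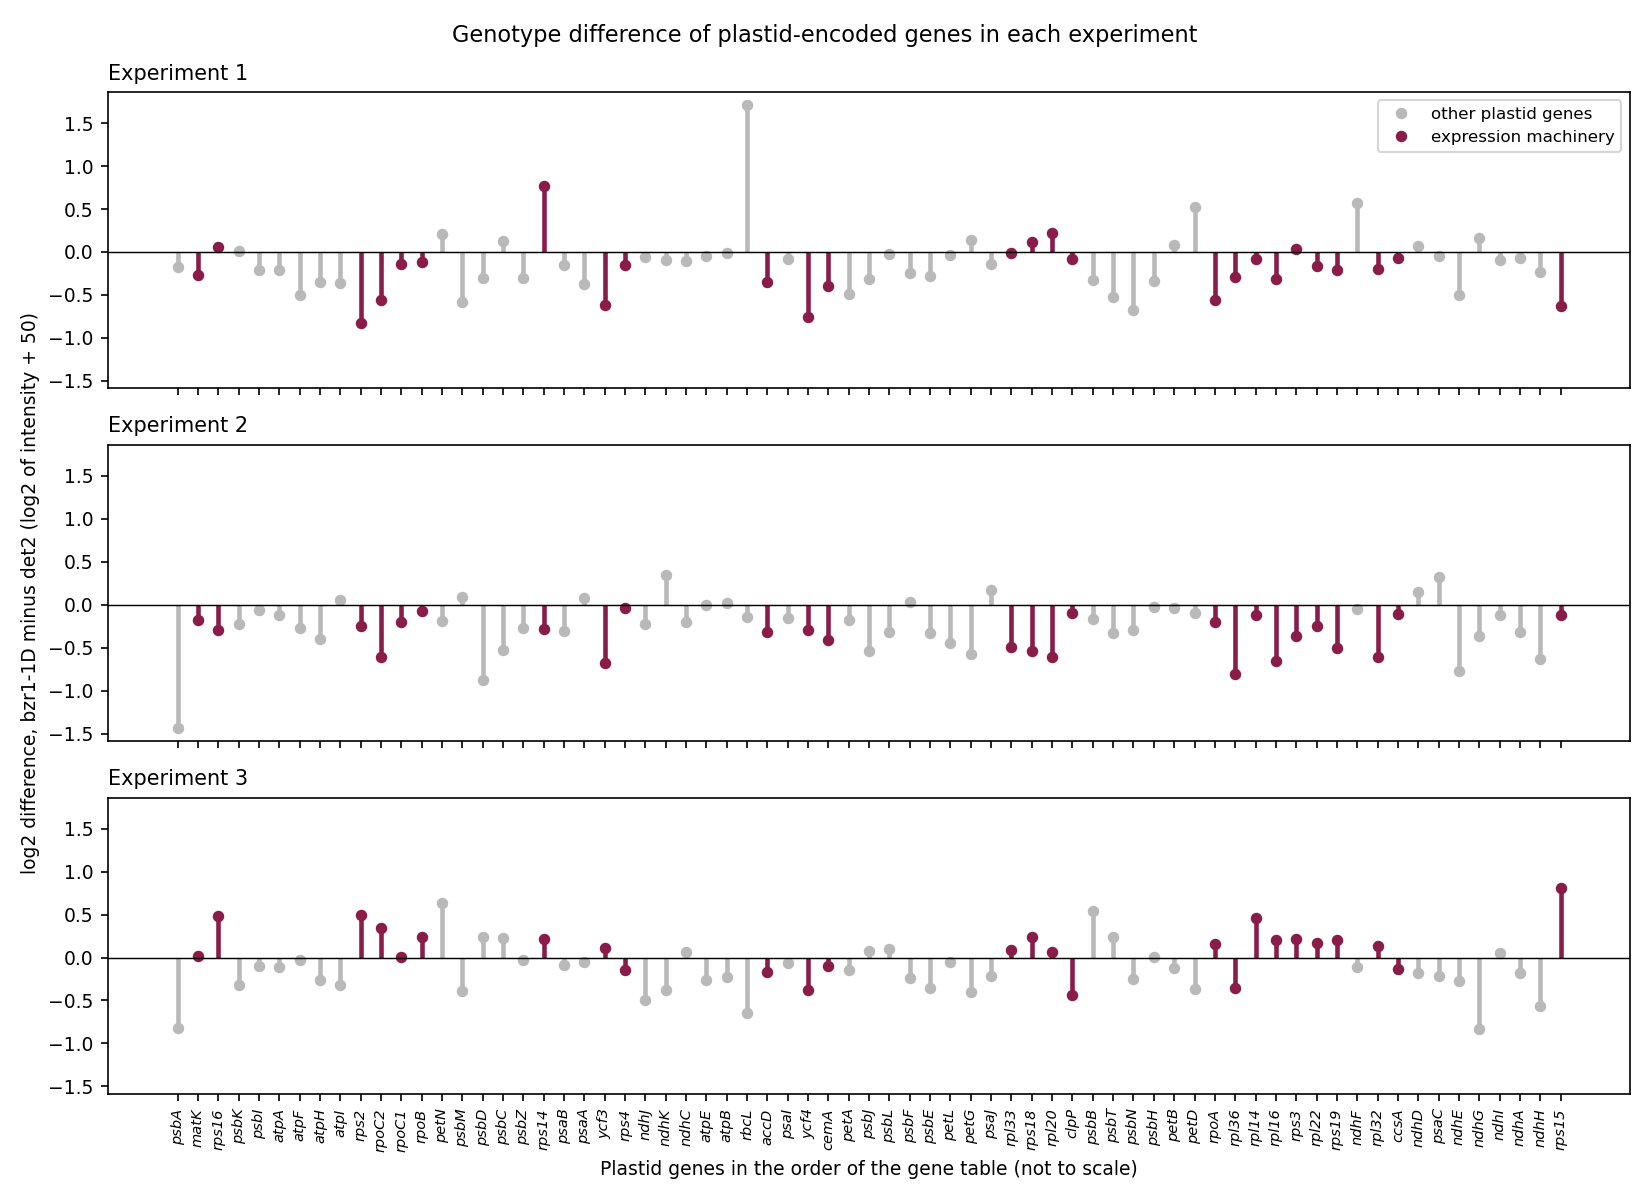
Difference between bzr1-1D and det2 (log2 of intensity plus 50, vertical axis) of 69 plastid genes in the order of the gene table, 1 panel for each experiment; dark points are the 26 machinery genes and grey points the other plastid genes. The 26 genes are all below 0 in experiment 2 (17 if arrays are centred on the other plastid genes), and 19 of them are above 0 in experiment 3.

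The other 43 plastid genes with a probe set of their own, which encode the large subunit of Rubisco and subunits of the photosystems, the cytochrome complex, ATP synthase and the NDH complex, were mostly lower in bzr1-1D in each experiment, the third included. Of these 43, 33 were lower in bzr1-1D in experiment 1, 34 in experiment 2 and 33 in experiment 3, with medians of -0.13, -0.19 and -0.18. In experiment 3, 10 of the 43 were thus higher in bzr1-1D, against 19 of the 26. Of those 10, 7 were photosystem II genes (psbB, psbC, psbD, psbH, psbJ, psbL and psbT), a family with 8 of 15 lower and a median of -0.03 in experiment 3. The mean log2 level of the machinery genes minus that of the other plastid genes was -0.31, -0.34 and 0.05 in bzr1-1D against -0.21, -0.22 and -0.23 in det2. The bzr1-1D array of experiment 3 stood above the other 5 arrays, and the det2 arrays were nearly level. This difference between the gene groups was not tested, as it rests on 1 array. Over all 3 experiments the medians were alike, -0.14 for the machinery and -0.16 for the other plastid genes, and 36 of the 43 were lower in bzr1-1D (35 after quantile normalization). The smallest unadjusted p-values among the 43 were those of ndhE, ndhH, psbA and psbN, whose log2 differences were -0.51 ± 0.15 (SE), -0.48 ± 0.15 (SE), -0.81 ± 0.27 (SE) and -0.41 ± 0.15 (SE), with adjusted p by limma from 0.701 to 0.725.

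**Figure D4:**
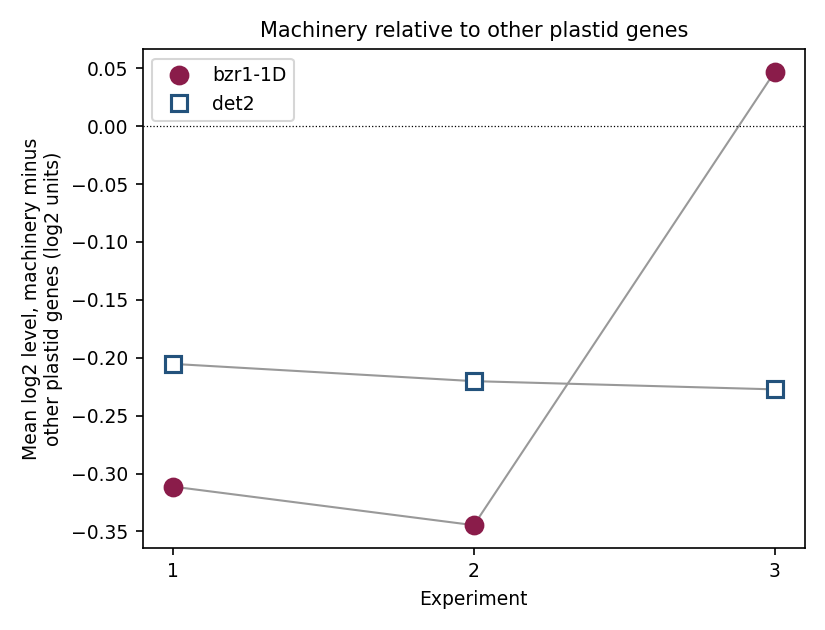
Mean log2 level of the 26 machinery genes minus that of 43 other plastid genes (vertical axis, log2 units) in each array by experiment; filled circles are bzr1-1D and open squares det2. The det2 arrays lie between -0.23 and -0.21, and the bzr1-1D arrays at -0.31, -0.34 and 0.05.

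The transcripts also varied between experiments. The median over the 26 genes of the gap between the highest and the lowest experiment was 0.58 on the log2 scale, and that of the size of the genotype difference was 0.16, though the first is taken over 3 means and the second over 2. Over all probe sets these medians were 0.34 and 0.14. In 15 of the 26 genes experiment 1 had the highest intensity in both genotypes, and 21 were lower in experiment 2 than in experiment 1, with a median log2 difference of -0.40 (49% of all probe sets were lower). In experiment 3, 21 were likewise lower than in experiment 1 (47.8% of all probe sets), with a median of -0.46, and 14 were lower than in experiment 2 (47.8% of all probe sets), with a median of -0.0039. The limma F test over the 3 experiments, with genotype as a term, called 0 of the 26 and 0% of all probe sets at 0.05 after adjustment. At an unadjusted p under 0.05 there were 11 of the 26 (11.1% of all probe sets): matK, rps3, rps4, rps14, rps16, rps18, rps19, rpl32, rpl36, ycf3 and ccsA. Of these 11, 10 had their highest mean in experiment 1, and the count of 11 was 1 without experiment 1 and 7 with arrays centred on the other plastid genes.

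The gap was widest in ycf3, with means of 2084, 614 and 691.5 in experiments 1 to 3, and a log2 difference of -1.69 ± 0.25 (SE) between experiments 2 and 1 (limma, adjusted p = 0.273). In rpl32 the means were 3186, 1184 and 1301, a log2 difference of -1.42 ± 0.23 (SE) between experiments 2 and 1 (limma, adjusted p = 0.284). The opposite order was seen in rpl36, with 1149, 1804 and 2835, a log2 difference of 1.26 ± 0.20 (SE) between experiments 3 and 1 (limma, adjusted p = 0.212). The polymerase gene rpoC1 had nearly level means of 2733, 2779 and 2768, and rpoB had 358.6, 399.6 and 446.2. The ratio of 3′ to 5′ GAPDH control probe sets, often read as a check on RNA integrity, moved with the experiment too. In experiment 1 it was 0.757 for bzr1-1D and 0.8 for det2, and it lay between 0.461 and 0.496 in the other 4 arrays. A second GAPDH pair on the array gave 0.99 to 1.16 and an actin pair 1.22 to 1.38, with no such gap, so the controls do not show a shared difference in RNA integrity. Their part in the differences between experiments was not tested.

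The nucleus encodes most partners of these genes, but few had a named probe set: 19 of 105 listed, with 10 above and 9 below 0 by mean difference and 0 passing the test over all probe sets. The lists of sigma factors, of polymerase-associated proteins and of nuclear acetyl-CoA carboxylase subunits had 0 measured genes. Of 8 nucleus-encoded plastid ribosomal proteins 4 were higher and 4 lower, and their log2 differences had a median of 0.00. All 8 were lower in bzr1-1D in experiment 2 (6 with arrays centred on the other plastid genes), 1 was lower in experiment 1 and 5 in experiment 3, against 52.1%, 49.1% and 54.1% of all probe sets. The lowest of the 8 was PRPL34, of the large subunit, at 6300.9, 3907.6 and 5166.9 in bzr1-1D against 7736.9, 8213.5 and 7602.2 in det2. Its log2 difference was -0.64 ± 0.19 (SE), with groups that did not overlap (limma, adjusted p = 0.701). Of the 19 partners, 1 was separated with bzr1-1D lower, PRPL34, and 1 with it higher, CLPT2 of the Clp protease. That is 10.5% of the 19, near the 9.32% of all probe sets separated in either direction. PSRP1, a protein that binds the plastid ribosome, had -0.54 ± 0.30 (SE), with differences of 0.14, -0.47 and -1.28 in experiments 1 to 3. Its det2 arrays were at 1924.5, 2513.1 and 5504.5, so most of the gap lies in 1 array. PRPL19A and PRPL19B had 0.16 ± 0.15 (SE) and 0.14 ± 0.14 (SE).

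Of 13 listed nuclear subunits of the Clp protease, to which clpP belongs, 4 were measured. All 4 were higher in bzr1-1D by mean difference under each scaling run, where 52.4% of all probe sets were lower in the main fit. The plastid gene clpP was lower, at -0.20, and at -0.04 with arrays centred on the other plastid genes. CLPT1, an accessory subunit, was at 1375.4, 863.3 and 1312.8 in bzr1-1D against 1091.9, 563.1 and 697.4 in det2. Its log2 difference was 0.59 ± 0.16 (SE), higher in each experiment, with overlapping groups and an adjusted p of 0.701 by limma. CLPT2, CLPR3 and CLPP4 had 0.31 ± 0.15 (SE), 0.10 ± 0.12 (SE) and 0.06 ± 0.14 (SE). In CLPP4 bzr1-1D was higher in experiment 1 only, with differences of 0.25, -0.06 and -0.02. Of the others, the phage-type polymerase RPOTMP had -0.03 ± 0.19 (SE), and CCS1 and CCDA, which work with ccsA, had 0.18 ± 0.17 (SE) and -0.03 ± 0.15 (SE). PYG7, a photosystem I assembly factor, had -0.17 ± 0.20 (SE). The plastid RNA processing factors CRP1, CFM3A and CAF1 had -0.03 ± 0.14 (SE), 0.04 ± 0.22 (SE) and -0.02 ± 0.23 (SE).

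Mitochondrial genes, the other organellar transcripts on the array, had a median log2 difference of -0.34 over 18 named probe sets, of which 16 were lower in bzr1-1D (13 with arrays centred on the other plastid genes) and 14 were lower in each experiment. The 4 with the smallest unadjusted p were probe sets of nad5, nad1, nad4 and nad9, subunits of respiratory complex I, with log2 differences of -0.67 ± 0.13 (SE), -0.62 ± 0.13 (SE), -0.62 ± 0.13 (SE) and -0.57 ± 0.13 (SE) and an adjusted p of 0.701 by limma in each. The other nad1 probe sets ran from -0.44 ± 0.18 (SE) to 0.24 ± 0.18 (SE), and the other nad5 probe set had -0.34 ± 0.13 (SE). Several of the 18 probe sets thus read the same gene and are not independent readings. Some were dim, with means over the arrays down to 5.183. The difference between mitochondrial and plastid genes was not tested.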

How the data were processed

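Per the labels' protocols, total RNA was labelled as biotinylated cRNA, 15 µg was hybridised to each ATH1 array, and the authors obtained the deposited intensity values with GCOS 1.1 at a target intensity of 500. The ratios to wild type that they later formed in GeneSpring 7.0 are not in these values. Labelling of this kind usually starts from poly(A) tails, which plastid transcripts mostly lack, so intensities may not follow total plastid RNA.

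An offset of 50 was added before log2 transformation, and arrays were not rescaled. After 64 controls were left out of 22810 probe sets, 22746 were tested with limma 3.58.1 in R 4.3.3, two-sided, with Benjamini-Hochberg adjustment over all of them. The platform annotation paired 13513 with 1 gene, 503 with several and 8730 with none. Through the gene identifier, 13436 were matched to the TAIR10.1 gene table, which was used for names and gene order only and in which plastid genes are found by chromosome. Mitochondrial genes were matched by symbol. Per the labels, both genotypes were grown in each of the numbered experiments, which makes arrays of 1 experiment a pair. Their deviations from the genotype means correlated at 0.387, 0.08 and 0.373 in experiments 1 to 3, against -0.371 to 0.107 for arrays of different experiments. The labels call the arrays biological replicates. Intervals use the moderated degrees of freedom. The genes and lists were chosen with earlier results of these data known. All 26 genes are named, and of other groups up to 4 genes with the smallest unadjusted p, beside petA and psaI, named as neighbours after their values were seen. The main genotype fit and the F test over experiments were first run on simulated data. The contrasts between pairs of experiments and the alternative fits were not. Figures were drawn with matplotlib 3.10.9. Alternatives were scaling, offset, filter, empirical Bayes settings, array weights, the block and leaving out an experiment.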

Additional observations from a re-analysis of the deposited data

How the results depend on the processing

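The number of the 26 genes with an adjusted p under 0.05 by limma was 0 between genotypes and 0 between experiments in every alternative run (0 to 0 without an experiment), and the smallest adjusted p of any of them between genotypes was 0.493. At an unadjusted p under 0.05 the count between genotypes was 2 with the replicate block, 1 with no replicate block and 2 with it as a random effect, 1 with an offset of 16, 0 with no offset, 0 with arrays centred on the other plastid genes, and 1 to 2 when an experiment was left out. Between experiments the count among the 26 was 11, 7 with arrays centred on the other plastid genes, 5 with no offset, 1 without experiment 1 and 12 without experiment 2. The block changed no call among these 26 genes. Over all probe sets the number called between genotypes was 0 with the block, 1 with no replicate block and 1 with it as a random effect. The median log2 difference of the 26 was -0.14 with no replicate block, ran from -0.0586 without experiment 2 to -0.236 without experiment 3, and was -0.14 with the 7 probe sets of 2 gene identifiers added, an alternative chosen after the data were seen. Centring each array on the 43 other plastid genes turned it to 0.0241, and the median of those 43 to 0.00899, since by construction that setting removes what plastid genes share; it moved the median of all probe sets to 0.153. Under it 12 of the 26 were lower in bzr1-1D, with 17 in experiment 1, 17 in experiment 2 and 4 in experiment 3, and 9 changed sign: ccsA (0.0641), matK (0.0228), rpl20 (0.0562), rpl22 (0.086), rpl33 (0.0254), rpoC1 (0.0549), rps18 (0.1008), rps3 (0.1243) and rps4 (0.0533). With quantile normalization 25 of the 26 were lower in experiment 2 and 9 in experiment 3. When an experiment was left out, 12 changed sign: rpl14 (-0.101 to 0.1901), rpl20 (-0.2721 to 0.1411), rpl22 (-0.205 to 0.0032), rpl33 (-0.2504 to 0.0363), rpoB (-0.0959 to 0.0805), rps14 (-0.0359 to 0.4913), rps15 (-0.3755 to 0.342), rps16 (-0.119 to 0.2684), rps18 (-0.2151 to 0.1754), rps19 (-0.3562 to 9e-04), rps2 (-0.538 to 0.123) and rps3 (-0.1662 to 0.1237). The number lower in bzr1-1D was 15 without experiment 2 and 25 without experiment 3. The 10 genes accD, cemA, clpP, rpl16, rpl32, rpl36, rpoA, rpoC2, ycf3 and ycf4 were lower in bzr1-1D in every alternative run, but their size moved. Without an experiment it ran from -0.3796 to -0.0201 in rpoA, from -0.3998 to -0.0274 in rpl32, from -0.4833 to -0.0533 in rpl16, from -0.266 to -0.0833 in clpP, from -0.5827 to -0.1043 in rpoC2, from -0.6496 to -0.2529 in ycf3 and from -0.5805 to -0.3242 in rpl36.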

Other observations

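The 7 plastid probe sets of machinery symbols that are paired with 2 gene identifiers each were left out of the counts above, and their genes are not named. Of these, 5 were lower and 2 higher in bzr1-1D (52.4% of all probe sets were lower), with a median log2 difference of -0.13. The range was from -0.45 to 0.29. In experiment 1 all 7 were lower in bzr1-1D (49.1% of all probe sets). In experiments 2 and 3 there were 5 in each (52.1% and 54.1% of all probe sets). By limma, 2 of the 7 had an unadjusted p under 0.05, both lower in bzr1-1D. Of all probe sets 4.1% met that criterion in the same direction and 6.84% in either. At an adjusted p under 0.05 there were 0 of the 7 and 0% of all probe sets.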
